A study of Mus musculus with 16 samples.

Results

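The genes described here are the interleukins and interleukin receptors, taken as every gene with a probe set of a single gene symbol whose symbol begins with Il and a digit. This rule found 76 of the 19938 genes measured in this way, 38 of them ligands and 38 receptors, binding proteins or other members. A gene was tested where its log2 signal exceeded the array's median on at least 2 of 16 arrays. That kept 33 of the 76 members, 13 ligands and 20 others, among 11634 genes tested in all. The other 43 members were over the median on 1 array (3 genes) or on 0 arrays (40 genes). Among the 33, 19 were over the median on every array and 14 on some of them.

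Resident macrophages were sorted from male C57BL/6 mice and their total RNA was hybridised to a one-colour mouse gene array, giving 16 arrays in 7 groups. Alveolar macrophages (AM) were sorted from digested lung without treatment (2 arrays of Bhlhe40+/+, here WT, and 2 of Bhlhe40-/-, here KO). Large peritoneal macrophages (LPM) were sorted from peritoneal lavage, without treatment on 3 WT and 3 KO arrays, here called naive LPM. Further LPM came from mice injected with IL-4c on days 0 and 2 and killed on day 4, with 2 WT arrays, 2 KO arrays and 2 arrays of LysM-Cre+ Bhlhe40fl/fl mice (LysM). KO mice carry the deletion in every cell, whereas LysM-Cre is driven by the lysozyme M gene, which is active in myeloid cells. The labels do not say whether replicates came from separate mice or from pools, so the p-values measure the spread between arrays, which may be technical. The KO and LysM arrays under IL-4c were each compared with the same 2 WT arrays. No group is labelled as Cre+ without the floxed gene or as floxed without Cre. In LysM minus WT, the deletion therefore cannot be told apart from the presence of Cre or of the floxed allele. Values are RMA log2 signals, differences are log2 differences between group means, and a member was called at a Benjamini-Hochberg adjusted p under 0.05 over all 11634 genes in limma.

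Interleukins are secreted signals that leukocytes use to address one another, and most of them act through paired receptor chains that recruit Janus kinases and STAT factors. IL-4 binds IL-4Rα together with the common gamma chain or with IL-13Rα1, and drives the alternative activation of macrophages through STAT6. The IL-1 family signals through Toll-like cytoplasmic domains and MyD88, with IL-1β and IL-18 processed by inflammasome caspase-1, while IL-10 acts through IL-10Rα and IL-10Rβ to restrain macrophages. IL-6 binds IL-6Rα and then gp130, the product of Il6st, which several related cytokines share.

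The signal of Bhlhe40, the deleted transcription factor, was lower in KO than in WT in AM (7.53 and 7.75 against 9.57 and 10.07) and in naive LPM (6.50 to 7.11 against 8.64 to 8.75). Under IL-4c it read 8.01 and 7.90 in KO and 8.77 and 8.99 in WT. In LysM it read 8.75 and 8.83, a difference of -0.09 from WT (adjusted p = 0.84), and whether the probes lie in the deleted exons was not given in the sources used here. Because of this, LysM below means the arrays labelled LysM. Mean log2 signal of 10 alveolar macrophage markers was 10.35 to 10.63 on AM arrays, and that of 9 LPM markers was 9.96 to 10.90 on LPM arrays, so the labelled cell types carried their defining markers. Within a group, arrays correlated with one another at 0.989 to 0.995. In RNA from sorted bulk cells, fewer cells of a type and less RNA per cell cannot be told apart.

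**Figure D1:**
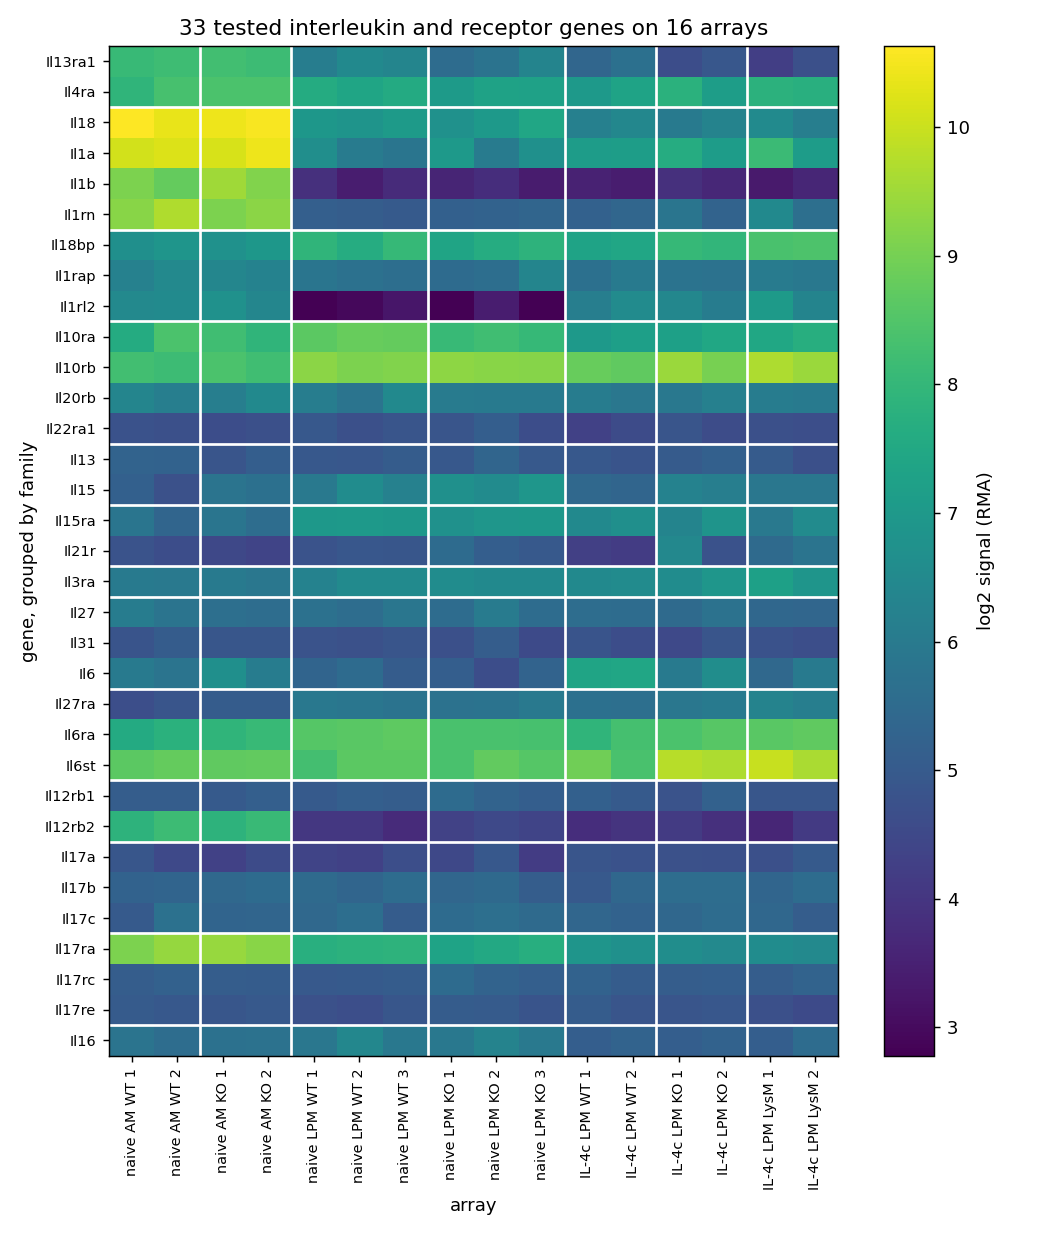
Heat map of the RMA log2 signal (colour) of the 33 tested members (rows, ordered by family) on the 16 arrays (columns, in groups divided by white lines). Il1b and Il12rb2 are bright on the 4 AM arrays and dark on every LPM array, and Il1rl2 is dark on the 6 naive LPM arrays alone.

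Resting AM and LPM of WT mice differed widely in the IL-1 family. Il1a, Il1rn and Il18 were lower in LPM by 3.55 to 4.37 on the log2 scale, and Il1b stood over the array medians in AM alone. Both tested receptor chains of IL-4 and IL-13 were also lower in LPM. Both tested chains of the IL-10 receptor, and Il6ra and Il27ra, were higher in LPM. Of the 33 tested members, 18 (54.5%) were called, against 38.3% of all genes tested. Those higher in LPM numbered 8, against 21.2% of all genes called higher, and those lower numbered 10, against 17.1% of all genes called lower. The members' median difference was -0.16 and that of all tested genes 0.02. Il1b and Il12rb2 passed the filter through the 4 AM arrays alone, so the filter fixed their direction and they lend these counts and this median no support. Il17a, Il21r and Il22ra1 passed through LPM arrays alone and also enter this median. None of them was called between LPM and AM.

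Il1b encodes IL-1β, the secreted pyrogenic ligand of the IL-1 receptor. Its log2 signal was 9.09 and 8.79 in WT AM, 9.51 and 9.15 in KO AM, 3.86, 3.42 and 3.75 in naive WT LPM and 3.36 to 3.87 over all 12 LPM arrays. Every LPM value lay below the array medians of 4.79 to 4.93, and the AM and LPM ranges were far apart. The difference in naive WT was -5.26 ± 0.17 (SE), 38.3-fold lower in LPM, and this fold rests on LPM signals that cannot be told from background. Il1b passed the filter through the AM arrays alone, so the filter fixed this direction and no p-value is given for it. Il1a encodes IL-1α, an alarmin of the same receptor. It read 10.10 and 10.23 in WT AM, 10.16 and 10.44 in KO AM, 6.65, 6.05 and 5.84 in naive WT LPM and 7.01, 6.05 and 6.72 in naive KO LPM. It was over the median on every array, and its difference was -3.98 ± 0.30, 15.8-fold (adjusted p = 1.8e-08).

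The 250 bases before the annotated start of these neighbouring genes are shown because both were high in AM, and only Il1a kept a signal over the array median in LPM. They are RefSeq sequences of GRCm38.p6, Il1a at chr2:129309973-129310222 and Il1b at chr2:129371140-129371389, both on the minus strand and written 5′ to 3′ along the gene. Capitals mark TGANTCA, the letters bound by AP-1 factors.
Il1a: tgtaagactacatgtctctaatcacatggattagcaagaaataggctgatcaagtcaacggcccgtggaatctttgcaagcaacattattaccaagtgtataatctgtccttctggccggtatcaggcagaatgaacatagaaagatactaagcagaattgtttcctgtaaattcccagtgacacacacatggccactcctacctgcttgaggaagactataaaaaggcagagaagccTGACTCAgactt
Il1b: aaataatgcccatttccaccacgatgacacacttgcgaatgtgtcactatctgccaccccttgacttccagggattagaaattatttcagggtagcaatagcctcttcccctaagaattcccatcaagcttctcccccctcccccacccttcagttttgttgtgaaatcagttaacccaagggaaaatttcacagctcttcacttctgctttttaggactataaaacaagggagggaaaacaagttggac
The match in Il1a began 12 bases before the annotated start, and the Il1b window held 0 matches. No window printed here held a second match, so no matches overlapped.

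Il1rn, which encodes the IL-1 receptor antagonist, read 9.24 and 9.68 in WT AM, 9.09 and 9.27 in KO AM, 5.17, 5.11 and 5 in naive WT LPM and 5.20, 5.26 and 5.34 in naive KO LPM. The difference in WT was -4.37 ± 0.21, 20.7-fold lower in LPM (adjusted p = 5.2e-11). Il18, whose product induces interferon-γ, read 10.63 and 10.36 in WT AM, 10.44 and 10.55 in KO AM, 6.92, 6.84 and 7.06 in naive WT LPM and 6.76, 7.04 and 7.44 in naive KO LPM. The difference was -3.55 ± 0.18, 11.7-fold (adjusted p = 1.3e-10), and for both genes the AM arrays lay wholly above the LPM arrays. Markers of lung epithelium moved with this comparison: the mean log2 signal of 6 such genes was 5.47 to 6.13 in AM and 3.61 to 3.86 in naive LPM, with 2 to 5 of 6 over the array median in AM and 0 or 1 in naive LPM. Epcam read 6.92 to 8.12 in AM and 3.21 to 3.52 in naive LPM, Cdh1 7.15 to 7.68 and 4.72 to 5.14, and Scgb1a1 4.86 to 6.74 and 1.98 to 2.33. Sftpc read 3.82 to 6.57 and 3.29 to 3.80, Sftpb 4.72 to 4.93 and 4.34 to 4.74, and Nkx2-1 3.66 to 3.99 and 3.63 to 4.02. Epcam, Cdh1, Scgb1a1 and Sftpc thus read higher on every AM array than on any naive LPM array. For Sftpc the nearest values were 3.82 in AM and 3.80 in naive LPM. Cdh1 also read 6.08 to 6.69 on the IL-4c LPM arrays, so its signal was not confined to lung samples. The part of lung epithelial cells in the differences was not tested.

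**Figure D2:**
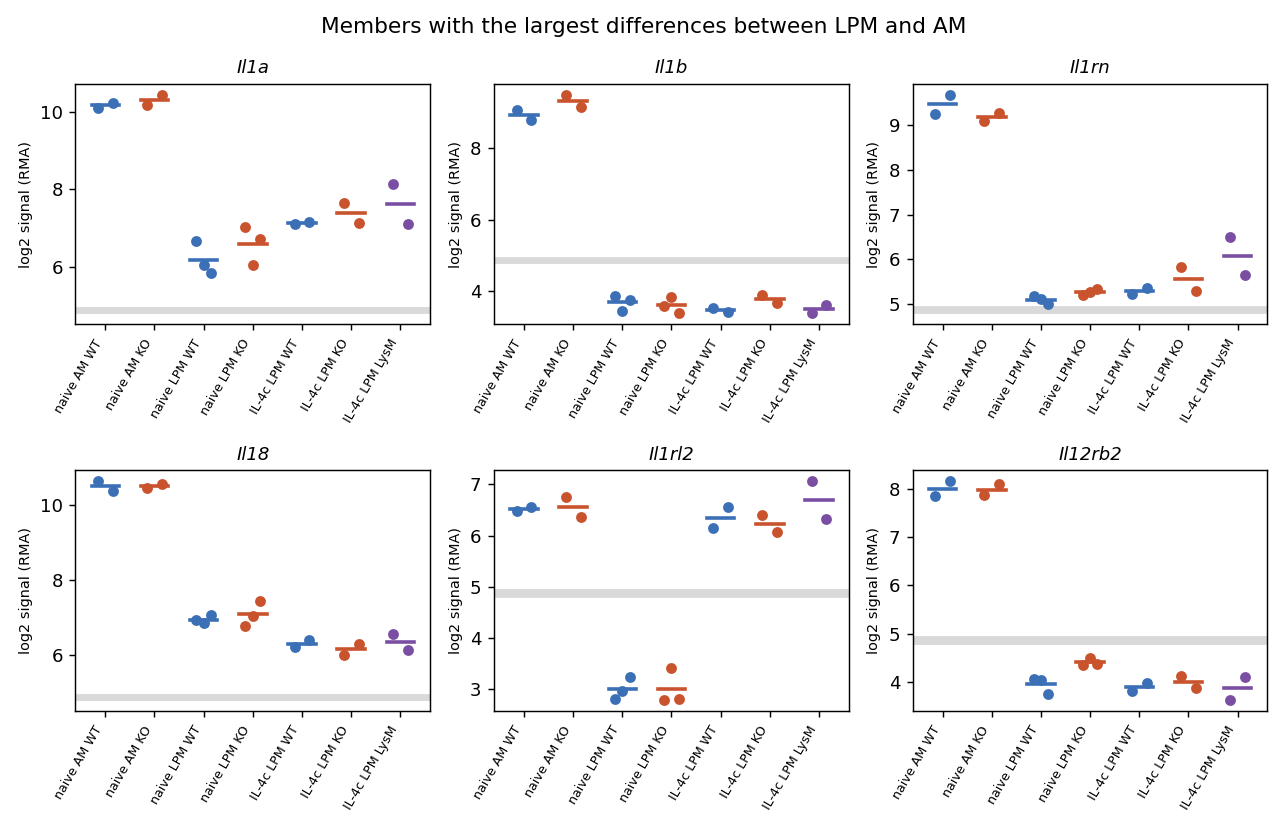
RMA log2 signal (vertical axis) of 6 members in the 7 groups (horizontal axis), with 1 point per array, a bar at the group mean and a grey band over the array medians. Il1a, Il1b, Il1rn, Il18 and Il12rb2 stand higher on the 4 AM arrays than on any LPM array, and Il1rl2 is below the band on naive LPM arrays and above it under IL-4c.

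Among IL-1 family receptors and binding proteins, Il1rl2 and Il1rap were lower in LPM and Il18bp was higher. Il1rl2 encodes the receptor of the IL-36 cytokines. It read 6.48 and 6.55 in WT AM, 6.75 and 6.37 in KO AM, 2.8, 2.96 and 3.24 in naive WT LPM and 2.78, 3.41 and 2.81 in naive KO LPM, so that all naive LPM arrays were below the array medians. The difference in WT was -3.52 ± 0.23, 11.5-fold (adjusted p = 3e-09), a fold that rests on naive LPM signals not above background. Il18bp, a secreted decoy that binds IL-18, went the opposite way to Il18: it read 6.70 and 6.87 in WT AM and 7.92, 7.64 and 8.03 in naive WT LPM, a difference of 1.08 ± 0.15 (adjusted p = 2.3e-05). Il1rap, the accessory chain shared by IL-1, IL-33 and IL-36 receptors, read 6.24 and 6.49 in WT AM and 5.84, 5.70 and 5.63 in naive WT LPM (-0.64 ± 0.20, adjusted p = 0.016). Its call was lost without WT AM replicate 2 (adjusted p = 0.14) or naive WT LPM replicate 3 (0.051).

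Receptor chains of the alternative-activation cytokines stood higher in AM. Il13ra1, which pairs with IL-4Rα to bind IL-4 or IL-13, read 8.08 and 8.20 in WT AM and 6.12, 6.52 and 6.35 in naive WT LPM (-1.81 ± 0.21, 3.5-fold, adjusted p = 2.3e-06). Il4ra, which encodes the chain that binds IL-4, read 7.92 and 8.35 in WT AM and 7.61, 7.38 and 7.59 in naive WT LPM (-0.61 ± 0.18, adjusted p = 0.014). The Il4ra groups did not overlap, but the call was lost without WT AM replicate 2 (-0.39, adjusted p = 0.2) or naive WT LPM replicate 2 (0.053). In the IL-10 receptor the direction was the opposite. Il10ra, the ligand-binding chain, read 7.60 and 8.41 in WT AM and 8.65, 8.80 and 8.78 in naive WT LPM (0.74 ± 0.19, adjusted p = 0.005), and was not called without WT AM replicate 1 (0.33, adjusted p = 0.17). Il10rb, a chain shared with IL-22, IL-26 and lambda interferons, read 8.24 and 8.17 in WT AM and 9.27, 9.08 and 9.14 in naive WT LPM (0.96 ± 0.14, adjusted p = 3.1e-05).

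The remaining differences between the resting cells lay in receptors and in Il15. Il12rb2, the signalling chain of the IL-12 receptor, read 7.85 and 8.15 in WT AM and 4.06, 4.04 and 3.74 in naive WT LPM. It was below the array medians on all LPM arrays. The difference was -4.05 ± 0.16 (16.6-fold), and the fold rests on LPM signals that cannot be told from background. Il12rb2 passed the filter through the AM arrays alone, so the filter fixed this direction and no p-value is given for it. This gene is best known from T and NK cells, whose 9 markers averaged 4.73 and 4.95 in WT AM and 3.99 to 4.10 in naive WT LPM. In WT AM 3 of the 9 were over the array median, Cd2 (10.97 and 11.12), Cd3e (5.24 and 5.10) and Thy1 (5.43 and 4.88), which read 5.68 to 5.80, 4.92 to 5.05 and 4.73 to 5.04 in naive WT LPM. Cd3d, Cd3g, Ncr1 and Klrb1c were below the median on every array. The part of such cells in the Il12rb2 difference was not tested. Il17ra, the common IL-17 receptor chain, read 9.07 and 9.39 in WT AM and 7.74, 7.81 and 7.86 in naive WT LPM (-1.43 ± 0.14, adjusted p = 3.9e-07). Il15, a trans-presented growth signal for NK and memory T cells, read 5.18 and 4.74 in WT AM and 5.96, 6.59 and 6.22 in naive WT LPM (1.30 ± 0.17, adjusted p = 1.3e-05). Il15ra, which presents it at the cell surface, read 5.83 and 5.35 in WT AM and 6.97, 6.99 and 6.94 in naive WT LPM (1.37 ± 0.19, adjusted p = 2.3e-05). Ligand and presenting receptor were thus both higher on all 3 naive WT LPM arrays than on either WT AM array.

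Receptors of the gp130 family and IL-3 receptor alpha were higher in LPM as well. Il27ra, the IL-27 receptor chain, read 4.66 and 4.86 in WT AM and 5.92, 5.87 and 5.76 in naive WT LPM (1.09 ± 0.12, adjusted p = 1.5e-06). Il6ra read 7.57 and 7.80 in WT AM and 8.55, 8.62 and 8.69 in naive WT LPM (0.94 ± 0.13, adjusted p = 2.8e-05). Il3ra, the IL-3 binding chain, read 5.97 and 5.95 in WT AM and 6.27, 6.54 and 6.55 in naive WT LPM (0.49 ± 0.14, adjusted p = 0.009). The chains of this family did not all differ alike: gp130 (Il6st) differed by -0.20 (95% interval -0.57 to 0.18), whereas Lifr, the LIF receptor chain that pairs with gp130, was higher in LPM (3.73 ± 0.21, adjusted p = 3e-10). The pathway lists are set against 21.2% of all genes called higher and 17.1% lower in LPM, and a departure from these shares was not tested. Of 12 tested partner genes without an Il symbol 3 were higher and 6 lower in LPM, and of 9 Janus kinases and STATs 4 were higher and 2 lower. Stat4, which relays IL-12, was higher in LPM (3.58 ± 0.17, adjusted p = 3.6e-11), opposite to Il12rb2. Among 13 inflammasome and IL-1 processing genes 6 were higher and 2 lower, with Pycard at 2.57 and Nlrp3 at -2.25.

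Injection of IL-4c was followed in WT LPM by higher Il1rl2, Il6 and Il1a and by lower signals of the IL-10 receptor chains, Il13ra1, Il17ra, Il15, Il16 and Il18. Of the 33 tested members 13 (39.4%) were called, close to the 41.2% of all genes tested. Higher were 3 members, against 22% of all genes, and lower were 10, against 19.2%. In KO LPM 9 members (27.3%) were called, against 37.3% of all genes, with 3 higher (all genes 21.9%) and 6 lower (all genes 15.4%). Without IL-4c WT replicate 1 the WT count was 6 in place of 13. The member medians were -0.15 in WT and -0.01 in KO, and those of all tested genes 0.02 and 0.04. The naive and IL-4c arrays also differed in B cell markers, whose 8 genes averaged 4.62 to 4.73 in naive WT, 4.41 to 5.18 in naive KO and 3.91 to 4.13 under IL-4c. The 8 neutrophil markers averaged 4.66 to 4.81 in naive and 4.18 to 4.53 in IL-4c LPM, and the 10 alveolar macrophage markers 4.65 to 4.95 and 5.39 to 6.04. Those last 2 lists did not move as a whole in WT. Of the 10 alveolar macrophage markers 4 had a difference above 0 (median -0.01), and Chil3 read 6.5 to 7.2 in naive WT and 12.39 and 12.49 in IL-4c WT. Of 4 tested neutrophil markers 2 had a difference above 0, and Csf3r read 9.2 to 9.44 in naive WT and 5.32 and 5.88 in IL-4c WT. The part of the cells that these lists mark was not tested.

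Neither tested chain of the IL-4 receptors was higher after IL-4c. Il4ra read 7.03 and 7.32 in IL-4c WT, 7.80 and 7.14 in IL-4c KO and 7.06, 7.31 and 7.27 in naive KO, beside 7.38 to 7.61 in naive WT. The difference was -0.35 in WT (95% interval -0.73 to 0.03, adjusted p = 0.14) and 0.26 in KO (-0.13 to 0.64, adjusted p = 0.28), with overlapping KO groups. Il13ra1 read 5.38 and 5.69 in IL-4c WT, 4.65 and 4.90 in IL-4c KO and 5.55, 5.76 and 6.33 in naive KO, and it fell in both genotypes. The fall was -0.80 ± 0.21 in WT (adjusted p = 0.0057) and -1.10 ± 0.21 in KO (adjusted p = 0.00069), with no overlap between naive and IL-4c arrays of a genotype. In IL-4c KO its signal was at the array medians. Il13ra2, the decoy receptor of IL-13, read 2.33 to 2.76 on all 16 arrays and was not tested, and Il2rg, the common gamma chain, was not analysed here.

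The IL-10 receptor fell in WT. Il10ra read 7.01 and 7.21 in IL-4c WT and 7.25 and 7.45 in IL-4c KO, beside 8.65 to 8.80 in naive WT and 8.04 to 8.22 in naive KO. It fell by 1.64 ± 0.19 in WT (3.11-fold, adjusted p = 5.9e-06) and fell by 0.76 ± 0.19 in KO (adjusted p = 0.0049; 0.059 without IL-4c KO replicate 1). Every IL-4c array lay below every naive array of either genotype. Il10rb read 8.81 and 8.70 in IL-4c WT, 9.45 and 9.01 in IL-4c KO and 9.30, 9.23 and 9.20 in naive KO, so that it was lower in WT (-0.41 ± 0.14, adjusted p = 0.026) while the KO groups overlapped (-0.01, 95% interval -0.30 to 0.28). Il22ra1, the IL-22 binding chain, read 4.29 and 4.58 in IL-4c WT against 4.93, 4.71 and 4.84 in naive WT, all near the array medians (-0.39 ± 0.15, adjusted p = 0.044). Il10 itself read 3.57 to 5.06 over the 16 arrays and was over the array median on IL-4c KO replicate 1 alone, so it was not tested. In LPM it read 4.34, 3.83 and 3.57 in naive WT and 4.84, 4.37 and 4.50 in naive KO. After IL-4c it read 3.57 and 3.70 in WT, 5.06 and 4.07 in KO and 3.84 and 3.85 in LysM. The KO arrays thus lay above the WT arrays in both states of LPM, but overlapped them in AM (3.76 and 4.39 against 3.95 and 3.98). With no filter on dim signal, 0 untested members were called between KO and WT by limma.

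**Figure D3:**
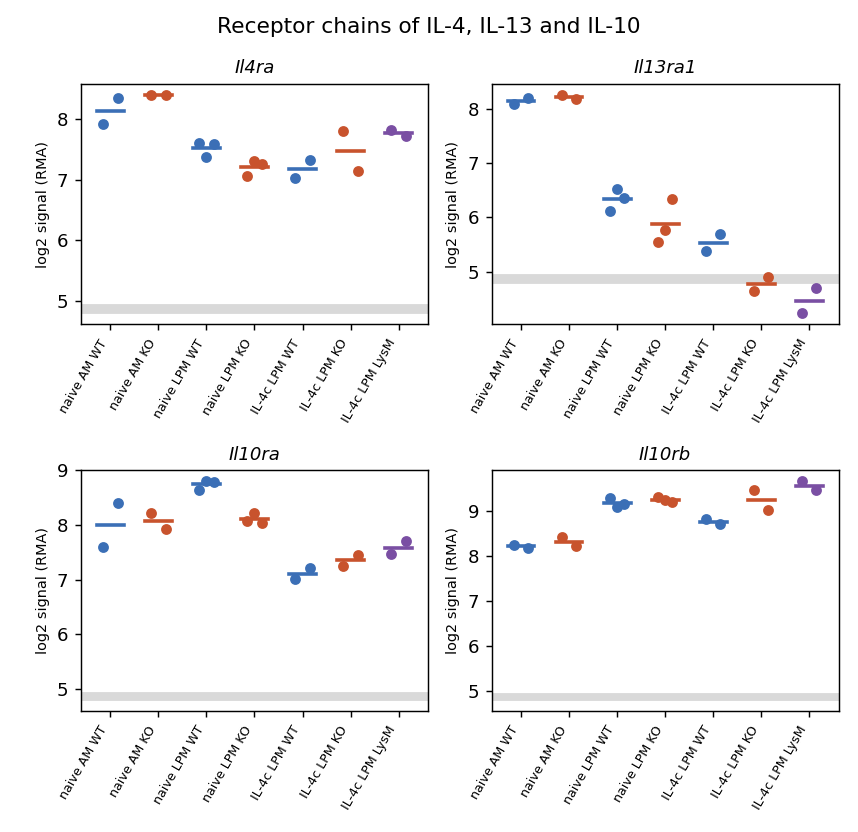
RMA log2 signal (vertical axis) of the receptor chains of IL-4, IL-13 and IL-10 in the 7 groups (horizontal axis), with 1 point per array, a bar at the group mean and a grey band over the array medians. Il10ra is lower on the 6 IL-4c arrays than on the 6 naive LPM arrays, and Il13ra1 is at or below the band in IL-4c KO and LysM.

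Within the IL-1 family, the IL-36 receptor gene showed the widest change of the 33 tested members. Il1rl2 read 6.14 and 6.56 in IL-4c WT, 6.40 and 6.07 in IL-4c KO and 7.06 and 6.33 in IL-4c LysM, where naive LPM read 2.78 to 3.41. It rose by 3.35 ± 0.23 in WT (10.2-fold, adjusted p = 4.8e-08) and by 3.24 ± 0.23 in KO (9.44-fold, adjusted p = 1.2e-07), and these folds rest on naive signals that cannot be told from background. Its IL-4c arrays thus reached the values of the AM arrays, 6.37 to 6.75. Il1a read 7.11 and 7.14 in IL-4c WT and 7.63 and 7.12 in IL-4c KO, above all naive LPM arrays, and rose in WT (0.94 ± 0.30, adjusted p = 0.021). In KO its difference was 0.78 (95% interval 0.13 to 1.43, adjusted p = 0.055). Il18 read 6.20 and 6.40 in IL-4c WT and 6.00 and 6.30 in IL-4c KO, and fell by 0.64 ± 0.18 in WT (adjusted p = 0.011) and fell by 0.93 ± 0.18 in KO (adjusted p = 0.0011).

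The other IL-1 family members did not move together. Il18bp, the IL-18 decoy, read 7.33 and 7.42 in IL-4c WT, 8.03 and 7.94 in IL-4c KO and 7.37, 7.63 and 7.87 in naive KO, and was lower after IL-4c in WT (-0.49 ± 0.15, adjusted p = 0.016). In KO its difference had the other sign (0.37, 95% interval 0.04 to 0.69, adjusted p = 0.07). Il1rn differed by 0.20 in WT (-0.25 to 0.65) and Il1b by -0.22 (-0.58 to 0.15), the latter below the array medians throughout. Il1rap differed by 0.11 in WT (-0.31 to 0.53) and by -0.07 in KO (-0.49 to 0.34). Il1r2, the decoy IL-1 receptor, read 3.06 to 4.72 over all arrays and was not tested, and Il1r1 and Il1rl1 were not analysed here.

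Most tested inflammasome and IL-1 processing genes fell under IL-4c, against 19.2% of all genes called lower in WT and 15.4% in KO. Of 13 tested inflammasome and IL-1 processing genes, 9 fell and 1 rose in WT, with a median difference of -1.15 against 0.02 over all tested genes, and 10 fell and 1 rose in KO (median -0.89 against 0.04). Nlrp3, the sensor that assembles the best-known inflammasome, read 6.77, 7.15 and 6.80 in naive WT and 4.24 and 4.20 in IL-4c WT, below the array medians after treatment (-2.69 ± 0.17, adjusted p = 1.3e-08). Naip2 (-1.74), Naip5 (-1.68) and P2rx7 (-1.63), a pair of bacterial sensors and the ATP-gated channel upstream of Nlrp3, also fell in WT, whereas Pycard, the adaptor ASC, rose by 0.70 ± 0.11 (adjusted p = 0.00013) and is named, after its values were seen, as the 1 gene of the list that rose. Of 13 IL-1 receptor signalling genes, 6 fell and 0 rose in WT. Nfkbiz, an IL-1-inducible nuclear IκB protein, read 8.49, 8.61 and 8.31 in naive WT and 5.14 and 5.68 in IL-4c WT (-3.06 ± 0.17, adjusted p = 4.6e-09). The regulators Peli2 (-1.15) and Irak3 (-1.02) were among the others. In KO 3 of the 13 fell, including Nfkbiz (-1.92), and 1 rose, the negative regulator Tollip (0.81, and 0.45 with adjusted p = 0.077 without IL-4c KO replicate 1).

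Of the 3 tested members that are gp130 family ligands, Il6 was called and Il27 and Il31 were not. Its log2 signal was 5.30, 5.53 and 5.07 in naive WT LPM and 7.35 and 7.42 in IL-4c WT, with no overlap. It rose by 2.09 ± 0.24 in WT (4.24-fold, adjusted p = 5.3e-06). In KO it read 5.12, 4.65 and 5.27 in naive and 6.03 and 6.64 in IL-4c arrays, a rise of 1.33 ± 0.24 (2.51-fold, adjusted p = 0.00047). Il6ra and Il6st encode its receptor chains. Il6ra read 7.91 and 8.31 in IL-4c WT and fell there (-0.51 ± 0.13, adjusted p = 0.0063), whereas in KO it read 8.40 and 8.59 against 8.37, 8.39 and 8.34 in naive KO (0.12, 95% interval -0.16 to 0.41). Il6st read 8.93 and 8.38 in IL-4c WT against 8.28, 8.66 and 8.64 in naive WT (0.13, -0.25 to 0.50), and rose in KO from 8.38, 8.73 and 8.57 to 9.78 and 9.66 (1.16 ± 0.18, adjusted p = 0.00012). Ebi3, the partner subunit in IL-27 and IL-35, fell in WT (-1.15 ± 0.15, adjusted p = 1.5e-05). Osm, which encodes the gp130 ligand oncostatin M, rose in KO (1.10 ± 0.30, adjusted p = 0.0094, and 0.13 without IL-4c KO replicate 1).

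The other called members fell in both genotypes or only passed in WT. Il17ra read 6.87 and 6.71 in IL-4c WT and 6.64 and 6.48 in IL-4c KO against 7.33 to 7.86 in naive LPM, and fell by 1.01 ± 0.14 in WT (adjusted p = 3.5e-05) and fell by 0.96 ± 0.14 in KO (adjusted p = 9.2e-05). Il16, a CD4 ligand processed from a larger precursor, read 5.14 and 5.29 in IL-4c WT and 5.14 and 5.25 in IL-4c KO against 5.89 to 6.40 in naive LPM (-0.86 ± 0.17 in WT, adjusted p = 0.00098, and -0.87 ± 0.17 in KO, adjusted p = 0.0011). Il15 read 5.44 and 5.35 in IL-4c WT and 6.27 and 6.14 in IL-4c KO against 6.72, 6.58 and 6.90 in naive KO. It fell by 0.86 ± 0.17 in WT (adjusted p = 9e-04) and fell by 0.53 ± 0.17 in KO (adjusted p = 0.024), a KO call lost without any 1 of naive KO replicate 3, IL-4c KO replicate 1 or IL-4c KO replicate 2 (adjusted p = 0.075, 0.065 and 0.13). Several WT calls rested on IL-4c WT replicate 1, without which Il1a (adjusted p = 0.083), Il6ra (difference -0.31, 0.14), Il13ra1 (0.077), Il18 (0.1), Il18bp (0.1), Il10rb (0.059) and Il22ra1 (difference -0.25, 0.33) were not called. Of these, Il1a (0.095), Il18bp (0.053) and Il10rb (0.16) were also lost without IL-4c WT replicate 2. Leaving out naive WT replicate 1 ended the calls of Il10rb (0.084) and Il22ra1 (0.13), replicate 2 that of Il1a (0.06), and replicate 3 those of Il1a (0.079), Il18bp (0.065) and Il22ra1 (0.089).

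Signal relays of the interleukin receptors were called in both directions under IL-4c. Of all genes tested, 22% were called higher and 19.2% lower in WT, and 21.9% and 15.4% in KO. Whether any list departs from these shares was not tested. Of 9 tested Janus kinases and STATs, 1 rose and 2 fell in WT: Stat4, which relays IL-12, fell by 2.06 ± 0.17 (adjusted p = 2.4e-07), Jak2 fell by 0.80 ± 0.15 (adjusted p = 0.00053), and Stat5a rose by 0.36 ± 0.13 (adjusted p = 0.03, and 0.053 to 0.2 without any 1 of the 5 arrays). Stat6 was not called. Of 16 feedback genes (SOCS proteins, phosphatases and PIAS proteins), 5 rose and 3 fell in WT, with Socs6 (1.63 ± 0.17, adjusted p = 2.4e-06), Cish (1.03 ± 0.16, adjusted p = 0.00013) and Socs1 (0.83 ± 0.14, adjusted p = 0.00022) the highest. Of 12 tested partner genes without an Il symbol, 4 rose and 1 fell in WT. Csf2rb, the common chain of the IL-3, IL-5 and GM-CSF receptors, rose by 1.01 ± 0.15 (adjusted p = 7.2e-05). Of 9 tested genes that respond to IL-10 through STAT3, 3 rose and 2 fell in WT, with Zfp36 at -1.92, and 4 rose and 2 fell in KO.

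Loss of Bhlhe40 in untreated mice was followed by no called member in either cell type. In AM, limma called 0 of 33 members, against 0.12% of all genes tested (0.0516% higher and 0.0688% lower). An unadjusted p under 0.05 was found for 3 of the 33, beside 5.33% of all genes tested. The lowest adjusted p was that of Il15, at 0.28: it read 5.80 and 5.67 in KO AM against 5.18 and 4.74 in WT AM, without overlap, a difference of 0.78 (95% interval 0.38 to 1.18). In naive LPM limma again called 0 of 33 members, against 1.88% of all genes tested (0.533% higher and 1.35% lower). Here 6 of the 33 had an unadjusted p under 0.05, beside 15.1% of all genes tested. Il10ra came nearest, with 8.08, 8.22 and 8.04 in KO against 8.65, 8.80 and 8.78 in WT, without overlap (-0.63, -0.99 to -0.27, adjusted p = 0.071). It was called when the fit used the compared arrays only (0.019), array weights (0.033) or an intensity trend with robust variance (0.04). For Il4ra the KO minus WT difference was 0.27 in AM (-0.15 to 0.69) and -0.31 in naive LPM (-0.66 to 0.03). For Il1b it was 0.39 in AM (-0.01 to 0.79), and for Il1a 0.13 in AM (-0.58 to 0.84). The test of KO minus WT in LPM against that in AM called 0 members by limma, against 0.249% of all genes tested. At an unadjusted p under 0.05 there were 5 of the 33 members and 13.1% of all genes tested.

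Under IL-4c the gp130 receptor chain and the IL-21 receptor were higher and Il6 was lower in both KO and LysM than in WT. In KO, 4 of 33 members (12.1%) were called, against 3.63% of all genes tested: Il21r, Il6st and Il15 were higher (all genes called higher 2.12%) and Il6 was lower (all genes called lower 1.5%). In LysM, 10 of 33 (30.3%) were called, against 8.67% of all genes, with 8 higher (all genes 4.8%) and 2 lower (all genes 3.87%). The member medians were 0.16 in KO and 0.14 in LysM, beside -0.02 and -0.01 over all tested genes. Because both comparisons use the same 2 WT arrays, they are not independent of each other. The direct comparison of LysM with KO called 0 members by limma, against 0.0172% of all genes tested. At an unadjusted p under 0.05 it had 3 of the 33 members and 8.8% of all genes tested. The KO count was 0 without IL-4c WT replicate 2 or without IL-4c KO replicate 1, and 1 without IL-4c WT replicate 1. The LysM count was 3 without LysM replicate 1, 4 without IL-4c WT replicate 2 and 5 without IL-4c WT replicate 1. The 10 alveolar macrophage markers averaged 5.39 and 5.73 in IL-4c WT, 5.68 and 5.97 in KO and 5.83 and 6.04 in LysM; their part was not tested.

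**Figure D4:**
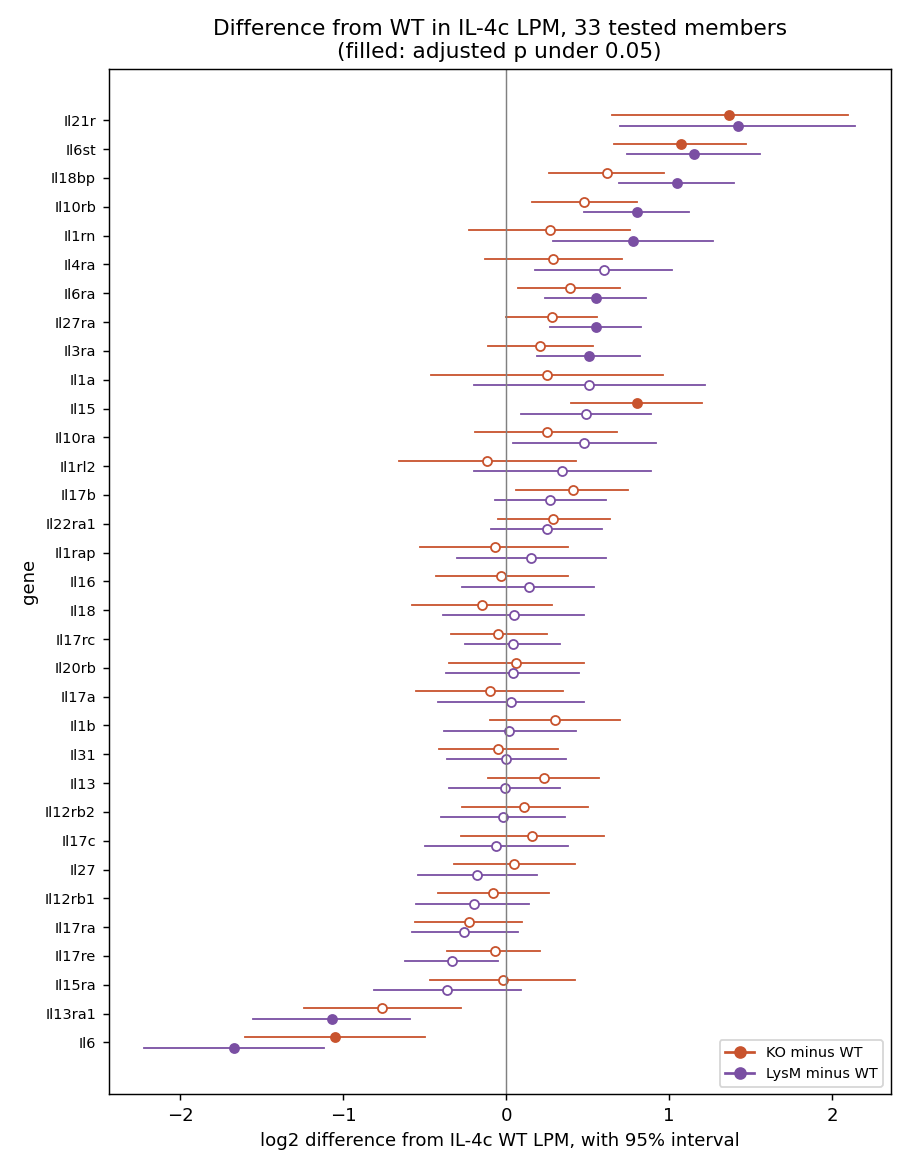
Log2 difference from IL-4c WT LPM with its 95% interval (horizontal axis) for the 33 tested members (vertical axis), in KO (orange) and LysM (purple), filled where the adjusted p is under 0.05. Il21r and Il6st lie at the top and Il6 at the bottom in both, with 4 filled points in KO and 10 in LysM.

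The 250 bases upstream of Il6 and its receptor chains are shown because each of these 3 genes was called in at least 1 of the genotype comparisons under IL-4c. They are RefSeq sequences of GRCm38.p6, written 5′ to 3′ along the gene: Il6 at chr5:30012864-30013113 on the plus strand, Il6ra at chr3:89913197-89913446 on the minus strand and Il6st at chr13:112463820-112464069 on the plus strand. Capitals mark TGANTCA (AP-1) in Il6 and CACGTG, the E-box letters that Bhlhe40 recognises, in Il6ra.
Il6: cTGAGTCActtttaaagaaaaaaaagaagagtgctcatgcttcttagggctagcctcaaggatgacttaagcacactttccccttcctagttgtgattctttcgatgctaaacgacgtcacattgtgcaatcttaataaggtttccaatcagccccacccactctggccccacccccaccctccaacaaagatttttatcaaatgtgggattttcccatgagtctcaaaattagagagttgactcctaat
Il6ra: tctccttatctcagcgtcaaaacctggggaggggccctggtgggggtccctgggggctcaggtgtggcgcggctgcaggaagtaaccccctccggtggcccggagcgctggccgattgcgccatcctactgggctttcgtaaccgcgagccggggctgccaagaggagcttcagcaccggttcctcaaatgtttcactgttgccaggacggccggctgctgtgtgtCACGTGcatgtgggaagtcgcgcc
Il6st: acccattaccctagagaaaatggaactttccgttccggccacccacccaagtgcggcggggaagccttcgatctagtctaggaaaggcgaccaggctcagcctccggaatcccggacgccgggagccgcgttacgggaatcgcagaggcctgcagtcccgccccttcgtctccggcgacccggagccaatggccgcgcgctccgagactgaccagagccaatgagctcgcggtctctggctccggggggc
The match in Il6 began 249 bases and that in Il6ra 24 bases before the annotated start, and the Il6st window held 0 matches to the searched motifs. Windows of 59 of the 76 member genes were found, 71 windows in all, so a gene with several windows counts more than once in the shares that follow. Those 59 genes include members that were not tested, and a departure from the share of all windows was not tested. CACGTG was in 2.82% of the member windows and 6.02% of all 32851 windows, TGANTCA in 19.7% and 6.75%, and the STAT6 palindrome, TTC and GAA with 4 bases between, in 19.7% and 5.85%. Each motif reads the same on both strands. Of the 25 tested member genes with a window, Il6ra alone held CACGTG, Il18 and Il1rn held the STAT6 palindrome, and 7 held TGANTCA. A match is a description of the sequence and not evidence of binding.

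Il6 was lower in both groups. Its log2 signal was 7.35 and 7.42 in IL-4c WT, 6.03 and 6.64 in KO and 5.42 and 6.02 in LysM, so that neither group overlapped WT. The difference from WT was -1.05 ± 0.26 in KO (2.07-fold, adjusted p = 0.036) and -1.67 ± 0.26 in LysM (3.17-fold, adjusted p = 0.0011). The KO call was lost without IL-4c WT replicate 1, IL-4c WT replicate 2 or IL-4c KO replicate 1 (adjusted p = 0.095, 0.22 and 0.29), with only the compared arrays (0.07) or with array weights (0.058), whereas the LysM call was kept under all 13 alternatives. Il6st read 8.93 and 8.38 in IL-4c WT, 9.78 and 9.66 in KO and 9.98 and 9.63 in LysM, again without overlap. It was higher by 1.07 ± 0.19 in KO (2.09-fold, adjusted p = 0.0057) and by 1.15 ± 0.19 in LysM (2.22-fold, adjusted p = 0.0019). Without IL-4c WT replicate 2 or IL-4c KO replicate 1 the KO call was lost (adjusted p = 0.12 and 0.061).

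Il6ra and Il27ra, the other tested gp130 family receptors, were called in LysM alone. Il6ra read 7.91 and 8.31 in IL-4c WT, 8.40 and 8.59 in KO and 8.61 and 8.72 in LysM (LysM 0.55 ± 0.15, adjusted p = 0.028, and KO 0.39, 95% interval 0.07 to 0.70, adjusted p = 0.18). Il27ra read 5.67 and 5.66 in WT, 5.88 and 6.02 in KO and 6.30 and 6.13 in LysM (LysM 0.55 ± 0.13, adjusted p = 0.018, and KO 0.28, 0.00 to 0.56, adjusted p = 0.29). The direct LysM minus KO differences were 0.17 (-0.14 to 0.48) for Il6ra and 0.27 (-0.01 to 0.55) for Il27ra, so a difference between KO and LysM was not shown. In LysM, Il6ra was not called without IL-4c WT replicate 1, LysM replicate 1 or LysM replicate 2 (adjusted p = 0.24, 0.1 and 0.1), its difference going from 0.55 to 0.35 without the first. Il27ra was not called without IL-4c WT replicate 1, IL-4c WT replicate 2 or LysM replicate 1 (0.067, 0.11 and 0.17). Osm read 6.86 and 6.54 in IL-4c WT, 8.42 and 7.85 in KO and 8.19 and 8.33 in LysM, higher by 1.43 ± 0.33 in KO (adjusted p = 0.023) and by 1.56 ± 0.33 in LysM (adjusted p = 0.0082). The Osm calls were lost without IL-4c WT replicate 2 (0.22 in KO and 0.097 in LysM), and that in KO also without IL-4c WT replicate 1 (0.053) or IL-4c KO replicate 1 (0.21).

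**Figure D5:**
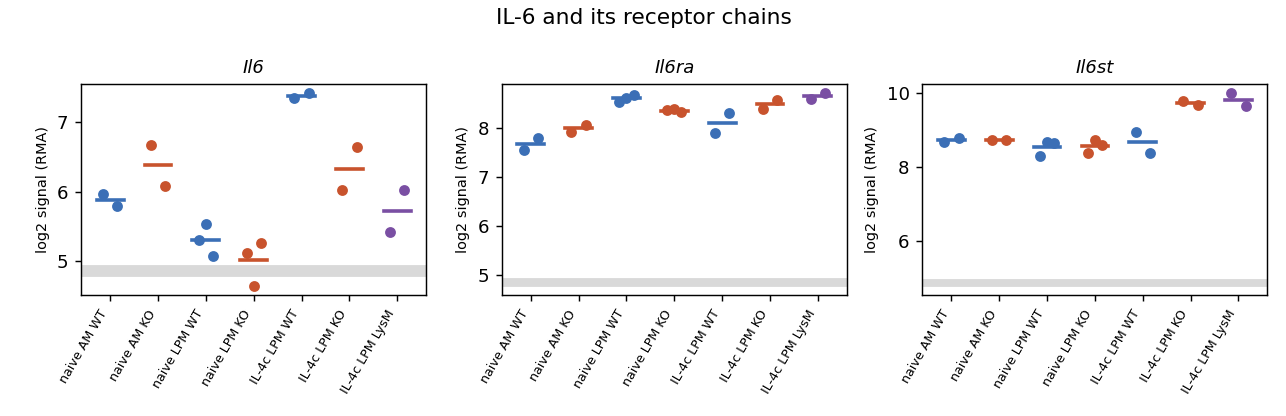
RMA log2 signal (vertical axis) of Il6, Il6ra and Il6st in the 7 groups (horizontal axis), with 1 point per array, a bar at the group mean and a grey band over the array medians. Under IL-4c, Il6 is highest in WT at 7.35 and 7.42, and Il6st is 9.63 to 9.98 in KO and LysM against 8.38 and 8.93 in WT.

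In the common gamma chain family, Il21r and Il15 were called. Il21r, the IL-21 receptor, read 4.27 and 4.18 in IL-4c WT, below the array medians, 6.43 and 4.77 in KO and 5.48 and 5.81 in LysM. It was higher by 1.37 ± 0.34 in KO (adjusted p = 0.036) and by 1.42 ± 0.34 in LysM (adjusted p = 0.017), without overlap, but the KO replicates stood far apart at 6.43 and 4.77. Without IL-4c KO replicate 1 the KO difference was 0.54 (adjusted p = 0.27), and without KO replicate 2 it was 2.21. The KO call was also lost without either IL-4c WT array (0.097 and 0.22), and the LysM call without any 1 of its 4 arrays (0.059 to 0.12). B cells carry this receptor, and their 8 markers averaged 4.04 and 4.13 in IL-4c KO, 4.06 and 4.10 in LysM and 3.91 and 4.06 in WT, with 0 or 1 of 8 over the array median. Of the 6 tested markers, 4 had a difference above 0 in KO and 3 in LysM, with 0 called by limma. Cd79a read 3.11 and 2.97 in WT, 4.09 and 3.93 in KO and 3.78 and 3.80 in LysM, all below the array medians. The part of B cells in the Il21r difference was not tested. Il15 read 5.44 and 5.35 in WT, 6.27 and 6.14 in KO and 5.88 and 5.90 in LysM, higher in KO by 0.80 ± 0.19 (adjusted p = 0.027). In LysM its difference was 0.49 (95% interval 0.09 to 0.89, adjusted p = 0.13), and the KO call was lost without any 1 of the 4 arrays (adjusted p = 0.06 to 0.21).

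In the IL-1 family, Il18bp and Il1rn were called in LysM. Il18bp, the IL-18 decoy, read 7.33 and 7.42 in WT, 8.03 and 7.94 in KO and 8.39 and 8.45 in LysM, with the 3 groups apart from one another. It was higher by 1.05 ± 0.17 in LysM (2.07-fold, adjusted p = 0.0013), kept under all 13 alternatives, and its KO difference was 0.62 (95% interval 0.26 to 0.97, adjusted p = 0.053). Il1rn read 5.22 and 5.37 in WT, 5.83 and 5.29 in KO and 6.50 and 5.65 in LysM, higher in LysM by 0.78 ± 0.23 (adjusted p = 0.048) and by 0.36 without LysM replicate 1 (adjusted p = 0.49), 1.20 without LysM replicate 2. That call was also lost without IL-4c WT replicate 1 (0.19) or replicate 2 (0.15), and in all under 9 of 13 alternatives, renormalisation (0.05) and centring (0.06) included. The ligands themselves were not called: LysM minus WT was 0.51 for Il1a (-0.20 to 1.22), 0.02 for Il1b (-0.38 to 0.43) and 0.05 for Il18 (-0.39 to 0.48). For KO minus WT these were 0.25 (-0.46 to 0.96), 0.30 (-0.10 to 0.70) and -0.15 (-0.58 to 0.28).

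Receptor chains of IL-10, IL-13 and IL-3 were also called in LysM. Il10rb read 8.81 and 8.70 in WT, 9.45 and 9.01 in KO and 9.65 and 9.45 in LysM, higher by 0.80 ± 0.15 in LysM (adjusted p = 0.0046), with a KO difference of 0.48 (0.16 to 0.80, adjusted p = 0.097). Il10ra read 7.46 and 7.70 in LysM (0.48, 0.04 to 0.92, adjusted p = 0.18). Il13ra1 read 5.38 and 5.69 in WT, 4.65 and 4.90 in KO and 4.23 and 4.70 in LysM, lower in LysM (-1.07 ± 0.23, 2.1-fold, adjusted p = 0.0083), with a KO difference of -0.76 (-1.24 to -0.28, adjusted p = 0.079). Il13ra1 was below the array medians in LysM and at them in KO, so these sizes rest on signals not clearly above background. Its partner Il4ra read 7.83 and 7.73 in LysM and differed by 0.60 (0.18 to 1.02, adjusted p = 0.073) there and by 0.29 (-0.13 to 0.71, adjusted p = 0.5) in KO. Il3ra read 6.51 and 6.58 in WT, 6.61 and 6.90 in KO and 7.23 and 6.88 in LysM (LysM 0.51 ± 0.15, adjusted p = 0.048). The calls of Il10rb (0.061 and 0.061), Il13ra1 (0.11 and 0.12) and Il3ra (0.17 and 0.4) were lost without IL-4c WT replicate 2 or LysM replicate 1. That of Il3ra was also lost without IL-4c WT replicate 1 (0.17), and its difference was 0.33 without LysM replicate 1; in all it was lost under 9 of 13 alternatives.

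Other genes of these pathways are set against 3.63% of all genes called in KO and 8.67% in LysM. Csf2rb, a partner of Il3ra, was lower in KO (-0.77 ± 0.17, adjusted p = 0.017) and in LysM (-0.58 ± 0.17, adjusted p = 0.04), whereas Il3ra was higher in LysM. Csf2rb2, another gene of the partner list, read 7.45 and 7.61 in IL-4c WT and 7.90 and 7.37 in LysM, and was not called. Of 16 feedback genes, 1 was called in KO, the STAT5 target Cish, which read 6.20 and 5.99 in WT and 5.30 and 5.37 in KO (-0.76 ± 0.18, adjusted p = 0.029), and 0 in LysM by limma. Of 13 IL-1 receptor signalling genes, Nfkbiz was higher in KO (0.89 ± 0.18, adjusted p = 0.014) and in LysM (0.62 ± 0.18, adjusted p = 0.048), and Irak3, an inhibitory kinase homolog, in LysM (0.90 ± 0.22, adjusted p = 0.018). Of 9 Janus kinases and STATs, Stat2 (0.82 ± 0.16, adjusted p = 0.0055) and Stat6 (0.49 ± 0.13, adjusted p = 0.031) were higher in LysM, and 0 were called in KO by limma. P2rx7 was higher in LysM (0.91 ± 0.16, adjusted p = 0.0024), the 1 called gene of 13 in the inflammasome list, with 0 called in KO by limma. Of the 9 tested IL-10 response genes, 1 was higher in KO, and 2 were higher (Zfp36 and the member Il1rn) and 1 lower in LysM. Zfp36 was higher in KO (0.77 ± 0.15, adjusted p = 0.01) and LysM (0.88 ± 0.15, adjusted p = 0.0024), and Nfil3 was lower in LysM (-0.62 ± 0.14, adjusted p = 0.015, and 0.1 without IL-4c WT replicate 1). The P2rx7 call and the LysM call of Zfp36 were kept whichever array was left out, and every other call in this paragraph was lost without at least 1 array. Without IL-4c WT replicate 1, Nfkbiz gave 0.62 (0.11) in KO and 0.35 (0.36) in LysM, and Cish (0.14), Zfp36 in KO (0.06), Irak3 (0.099), Stat6 (0.17) and Csf2rb in LysM (0.08) were not called. Without IL-4c WT replicate 2, Csf2rb was not called in KO (0.17) or LysM (0.25). Without LysM replicate 1, Stat2 was not called (0.089).

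The test of whether IL-4c acted differently in KO and WT LPM called 0 of 33 members by limma, against 0.55% of all genes tested. An unadjusted p under 0.05 was found for 8 of the 33, beside 13.1% of all genes tested. Il6st had the lowest adjusted p, with an interaction of 1.03 (95% interval 0.51 to 1.56, adjusted p = 0.075), and passed without IL-4c WT replicate 1 (0.034) or with an intensity trend and robust variance (0.039). Next were Il18bp (0.86, 0.40 to 1.31, adjusted p = 0.085), Il6ra (0.63, 0.23 to 1.04, adjusted p = 0.14) and Il10ra (0.87, 0.31 to 1.44, adjusted p = 0.15). For Il6 it was -0.76 (-1.47 to -0.05, adjusted p = 0.35) and for Il4ra 0.61 (0.06 to 1.15, adjusted p = 0.33). A greater effect of genotype under IL-4c than in untreated LPM was therefore not shown for these members, and their intervals do not contain 0. In the lists of other pathway genes, Zfp36, which encodes the mRNA-destabilising protein tristetraprolin, had an interaction of 1.15 ± 0.20 (adjusted p = 0.013) and Nfkbiz one of 1.13 ± 0.24 (adjusted p = 0.043). The Zfp36 call was lost without IL-4c WT replicate 2 (0.055) or IL-4c KO replicate 1 (0.068), and that of Nfkbiz under 12 of 19 alternatives.

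The arrays of called members not given above were as follows. In KO AM, Il4ra read 8.40 and 8.41, Il13ra1 8.26 and 8.17, Il10ra 8.22 and 7.92, and Il10rb 8.41 and 8.21. Il12rb2 read 7.86 and 8.09 in KO AM and 3.62 to 4.50 over the 12 LPM arrays, Il17ra 9.42 and 9.25 in KO AM, and Il18bp 6.75 and 6.93. None of these genes was called between KO and WT AM by limma. Il1rap read 6.37 and 6.25 in KO AM, 5.51, 5.63 and 6.36 in naive KO, 5.69 and 5.97 in IL-4c WT, 5.77 and 5.75 in IL-4c KO and 6.05 and 5.92 in LysM. Il15ra read 5.83 and 5.58 in KO AM, 6.75, 6.89 and 6.92 in naive KO, 6.52 and 6.70 in IL-4c WT, 6.32 and 6.85 in IL-4c KO and 5.94 and 6.56 in LysM. Every LPM array of Il15ra was above the 4 AM arrays. Il27ra read 5.05 and 5.06 in KO AM and 5.73, 5.78 and 5.96 in naive KO, and Il3ra 6.03 and 5.90 in KO AM and 6.59, 6.51 and 6.50 in naive KO. Both were lower on all AM arrays than on any LPM array.

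In the IL-6 axis, the AM arrays (WT, then KO) read 5.97, 5.79, 6.68 and 6.09 for Il6 and 8.66, 8.78, 8.71 and 8.73 for Il6st. Il6ra read 7.92 and 8.08 in KO AM. Il6 in IL-4c WT was thus above every AM array. Il17ra read 7.33, 7.52 and 7.71 in naive KO and 6.60 and 6.46 in LysM. Il16 read 5.80, 5.59, 5.72 and 5.73 in AM (WT, then KO), 5.89, 6.40 and 5.93 in naive WT, 5.93, 6.28 and 5.96 in naive KO and 5.13 and 5.57 in LysM. Both genes were lower on every IL-4c array than on any naive LPM array. Il21r read 4.79, 4.64, 4.47 and 4.38 in AM (WT, then KO), 4.80, 4.90 and 4.88 in naive WT and 5.52, 5.12 and 4.97 in naive KO. The B cell markers averaged 5.18, 4.93 and 4.41 on those naive KO arrays, and their part was not tested. Il22ra1 read 4.76, 4.69, 4.62 and 4.69 in AM, 4.85, 5.12 and 4.64 in naive KO, 4.86 and 4.59 in IL-4c KO and 4.70 and 4.67 in LysM, all near the array medians. In LysM, Il1a read 8.14 and 7.11 and Il18 6.55 and 6.14, with the higher Il1a value on replicate 1.

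Tested members not named above stayed near the array medians or gave no call. Il17a, Il17b, Il17c, Il17rc, Il17re, Il12rb1, Il13, Il20rb, Il27 and Il31 were called in 0 of the 10 comparisons by limma, and their signals ran from 4.19 (Il17a) to 6.50 (Il20rb) over the 16 arrays. The 43 untested members had log2 signals of 2.11 to 5.93. They include all 4 measured IL-10 family ligands, all 3 IL-12 family ligands and, among the IL-1 family ligands, 6 of 10. The highest of their values was that of Il7r, the IL-7 receptor, at 5.93 on LysM replicate 1 against 4.03 on LysM replicate 2. Their low signal on this array does not show that the genes are silent.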

How the data were processed

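The authors deposited 1 column of log2 values per array for 30177 probe sets on 16 arrays, for which the submitters' processing notes name RMA, which equalises the arrays' distributions, so that a shift in all genes at once is removed. Its version, and which arrays were normalised together, were not given in the sources used here. No detection calls came with the values. The number of arrays limits the precision. Sample titles gave group and replicate.

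Of the probe sets, 21789 had 1 gene symbol in the platform annotation, 1621 several and 6767 none; a probe set without a single symbol was left out. The 80 member probe sets matched the reference gene table by Entrez ID. Where a gene had several probe sets, as 3 members did, the brightest on average stood for it. Genes over the array median on at least 2 arrays were tested with limma 3.58.1 under R 4.3.3 (two-sided moderated tests) as 7 group means over all 16 arrays (15.6 total degrees of freedom), with Benjamini-Hochberg adjustment within each of 10 comparisons. The fit was tested on simulated data. Intervals are 95%.

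The members and gene lists were chosen with earlier results of these data known. Named are the IL-4, IL-1 and IL-10 genes, members called between genotypes, the 8 largest called rises and falls otherwise, and at most 4 called genes of a pathway list. Members called at least once are given on every array, some dim groups as a range. Alternatives were renormalisation, median centring, other filters, probe set means, other variance settings, the compared arrays only, array weights, the replicate number as a block, and omission of each array in turn. Figures were drawn with matplotlib 3.10.9 in Python 3.11.15.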

Additional observations from a re-analysis of the deposited data

How the results depend on the processing

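Of 54 called member values, 30 kept their call under every alternative tried, 24 lost it under at least 1 and 0 changed sign; of 85 named values of pathway genes, 26 lost it under at least 1 and 0 changed sign. In KO against WT under IL-4c, 4 members were called, 0 when only the compared arrays were fitted and 2 with array weights. In LysM against WT, 10 were called, and 3 with only the compared arrays. In KO against WT naive LPM, 0 were called, and 1, Il10ra, with an intensity trend and robust variance, 1 with only the compared arrays and 1 with array weights. The interaction of genotype with IL-4c went from 0 to 1 (Il6st) with the intensity trend and robust variance. The cause was not tested, other than that a fit of the compared arrays alone uses fewer samples. Leaving out each array in turn gave 0 to 4 calls in KO against WT under IL-4c, 3 to 8 in LysM, 6 to 12 for IL-4c in WT, 7 to 11 for IL-4c in KO, 16 to 18 for LPM against AM, 0 to 1 for each interaction and 0 to 0 for the other comparisons. A group left with 1 array was assumed to vary like the others. Renormalisation and centring moved the median of all genes by at most 0.09.

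Replicate numbers were not taken to pair the arrays. Deviations of same-numbered arrays correlated at 0.07, 0.01 and -0.14 between naive WT and KO LPM and at -0.07 between WT and KO AM. Under IL-4c they correlated at 0.11 between WT and KO and at 0.15 between WT and LysM, with 2 pairs each, too few to settle a pairing. With the replicate number as a block, the counts were 0 in naive AM, 0 in naive LPM, 5 in KO and 8 in LysM under IL-4c, 0 for LysM against KO, 13 and 10 for IL-4c in WT and KO, 19 for LPM against AM and 0 for both interactions. The block ended the calls of Il6 in KO (adjusted p = 0.055), Il1rn (0.065) and Il3ra (0.071) in LysM and Il15 for IL-4c in KO (0.056). It added Il13ra1 (0.035) and Il18bp (0.037) in KO under IL-4c, Il12rb2 (0.038) and Il18bp (0.02) for IL-4c in KO and Il16 (0.048) for LPM against AM.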

Other observations

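When every gene was tested with no filter on dim signal, 7 values of members that had been left out were called. Il18rap, the accessory chain of the IL-18 receptor, read 3.53, 3.40 and 3.75 in naive WT LPM, 4.58 and 4.94 in IL-4c WT, 4.11 and 4.28 in IL-4c KO and 4.21 and 4.01 in LysM. Its IL-4c difference in WT was 1.20 ± 0.15 (adjusted p = 1.8e-05) and its LysM minus WT difference -0.65 ± 0.17 (adjusted p = 0.035). Il1r2, the decoy IL-1 receptor, read 4.06 and 4.72 in WT AM and 3.29, 3.12 and 3.06 in naive WT LPM (-1.23 ± 0.19, adjusted p = 9.1e-05). The others were Il31ra (0.65) and Il7 (0.48) for IL-4c in WT, Il12b (-0.49) for IL-4c in KO and Il17d (-0.51) for LPM minus AM. All of these signals but the Il18rap value of 4.94 were below the array medians, so the sizes are not measured on a scale above background.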
